A study of Mus musculus with 2 samples.

Results

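The genes described here are 10 members of the BCL2 family, chosen by name from the matrix of spliced transcripts. They comprise the pro-survival genes Bcl2, Bcl2l1 (which encodes BCL-XL), Mcl1 and Bcl2a1b, the pore-forming effectors Bax and Bak1, and the BH3-only genes Bid, Bcl2l11 (BIM), Bbc3 (PUMA) and Pmaip1 (NOXA). They are 10 of 54736 distinct gene names or IDs in the files. Counts of UMIs, the molecular tags that mark single captured mRNA molecules, were summed over the cells of each culture and scaled to counts per 1000000 UMIs (CPM). Of the members, 8 reached 5 CPM in at least 1 condition, as did 9550 of all genes. Bak1 and Bcl2a1b did not.

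The cells were the 63.3 line, mouse acute myeloid leukemia cells grown with 0.5 µM beta-estradiol and stem cell factor. In 1 series the cells received 2 µM brequinar, an inhibitor of dihydroorotate dehydrogenase and so of pyrimidine synthesis, for 6, 12, 24 or 48 h, with no removal of beta-estradiol recorded. In the other, cells were washed and moved to medium without beta-estradiol for 6, 12, 24 or 48 h. Each series had its own 0 h culture, kept in beta-estradiol. All 10 cultures were tagged with MULTI-seq barcodes (lipid-anchored DNA tags), pooled and profiled as single cells. Solvent for the brequinar 0 h culture and washes for the withdrawal 0 h culture are not mentioned in the labels. No untreated culture at 6, 12, 24 or 48 h was analysed here, so treatment and time in culture cannot be told apart. Each condition was 1 culture, so differences could not be checked against replicates or tested. Intervals are exact 95% intervals for counting error alone.

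BCL2 family proteins set whether the outer mitochondrial membrane is opened during apoptosis. Activated BAX and BAK form pores through which cytochrome c leaves and activates caspases, while BCL2, BCL-XL, MCL1 and A1 bind and restrain them. BH3-only proteins report stress: BIM and PUMA can bind all the pro-survival proteins, NOXA mainly binds MCL1 and A1, and BID is cleaved by caspase-8 downstream of death receptors. In myeloid leukemia, BCL2 is the target of venetoclax, and MCL1 is a short-lived protein on which many myeloid cells depend.

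A promoter window of Bcl2l11 and one of Bbc3 are shown because both transcripts stood higher at 6 h in both series. FOXO3 is a known activator of both genes, and of the 2 windows of Bcl2l11 and the 3 of Bbc3 those printed are the ones that hold its core. Each window holds the 250 bases before an annotated start, from RefSeq on GRCm38.p6, on the plus strand. The bases just after the Bcl2l11 start occur in a GENCODE vM21 transcript of that gene. Those just after the Bbc3 start occur in no GENCODE vM21 transcript of Bbc3, so this start is less certain. Capitals mark the FOXO core GTAAACA, which reads TGTTTAC on the opposite strand.
Bcl2l11, chr2:128125788-128126037: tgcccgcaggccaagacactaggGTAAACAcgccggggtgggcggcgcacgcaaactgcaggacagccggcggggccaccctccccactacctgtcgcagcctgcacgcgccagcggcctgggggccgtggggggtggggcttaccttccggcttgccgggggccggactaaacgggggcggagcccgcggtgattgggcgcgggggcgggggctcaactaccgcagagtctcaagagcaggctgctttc
Bbc3, chr7:16310011-16310260: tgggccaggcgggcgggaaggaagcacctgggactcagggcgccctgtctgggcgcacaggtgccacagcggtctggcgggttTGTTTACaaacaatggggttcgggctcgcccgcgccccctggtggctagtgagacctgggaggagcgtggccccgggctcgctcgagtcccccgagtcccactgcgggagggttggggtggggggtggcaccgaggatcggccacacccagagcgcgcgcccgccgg

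The match starts at -227 from the annotated start in Bcl2l11 and at -167 in Bbc3. Both strands were searched for 5 motifs, and 3.17% of 32851 promoter windows of this length hold the FOXO core. The CARE core of ATF4 and CHOP (TGATGNAA, 3.45% of windows) was found in the Bcl2a1b window. The E-box (CACGTG, 6.02%) was found in the Bax window and in another window of Bbc3. No member's window held the CRE (TGACGTCA, 1.55%) or the C/EBP site (TTGCGCAA, 0.164%). The windows of Bcl2, Mcl1, Bcl2l1, Bak1 and Bid held none of these letters, no window of Pmaip1 was used, and a match describes letters and not a bound site.

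The 12540 cells gave 528 to 1536 cells and 5236694 to 19931921 UMIs per culture. Progenitor markers (Cd34, Kit, Flt3, Meis1, Hoxa9 and Sox4) summed to 619 and 608 CPM in the brequinar and withdrawal 0 h cultures. They summed to 855 CPM at 24 h and 436 CPM at 48 h of brequinar. There 2 of 6 were higher at 24 h and 2 of 6 lower at 48 h. In withdrawal they summed to 210 CPM at 24 h and 207 CPM at 48 h. There 5 of 6 were lower at each hour and 1 was higher at 48 h. Of 7 lymphoid markers, 4 stayed under 1 CPM in every culture. All 7 summed to 230 CPM at 24 h and 145 CPM at 48 h of brequinar and 79.8 CPM at its 0 h, with 3 of 3 measured markers higher at 24 h and 2 of 3 at 48 h, and to 73.6 CPM at 48 h of withdrawal and 81.4 CPM at its 0 h. At 48 h, neutrophil markers made up 0.197% of UMIs after brequinar and 0.0329% at its 0 h, with 9 of 9 measured markers at least 1.5-fold higher. After 48 h of withdrawal they made up 5.90%, against 0.0387% at its 0 h, with 10 of 10 higher. Eosinophil markers summed to 3581 CPM at 24 h and 11670.1 CPM at 48 h of brequinar and 1444 CPM at its 0 h, and to 16598 CPM at 24 h and 9176 CPM at 48 h of withdrawal and 1237 CPM at its 0 h. Monocyte and macrophage markers summed to 679 CPM at 48 h of brequinar and 111 CPM at its 0 h, and to 399 CPM at 48 h of withdrawal and 109.6 CPM at its 0 h. Mast cell and basophil markers summed to 430.0, 663, 1755 and 3213 CPM at 0, 12, 24 and 48 h of brequinar. With withdrawal they summed to 458, 1342, 843 and 293 CPM at the same hours. Fcer1a, which is among them, was at 0 in every culture. The part of these cell states in the members' differences was not tested. The median depth per cell was 9782 UMIs after 48 h of brequinar and 14849 at its 0 h, and 6509 after 48 h of withdrawal and 15229 at its 0 h. The 2 cultures at 0 h differed little: at least 1.5-fold in either direction, 0 of 8 measured members differed, against 0.0604% of 8277 genes higher and 0.109% lower in the brequinar series.

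Bcl2, the founding pro-survival gene, was the member on which the series diverged most. In the brequinar series it measured 47.5, 29.4, 43.1, 93.3 and 61.1 CPM at 0, 6, 12, 24 and 48 h. In the withdrawal series it measured 45.5, 23.4, 38.0, 18.7 and 10.2 CPM at the same hours. Both series were lower at 6 h, and from 24 h brequinar stood above its 0 h level and withdrawal below. The 24 h ratio to 0 h was 1.97 (1.81 to 2.13) with brequinar and 0.412 (0.358 to 0.473) with withdrawal. At 48 h the ratio was 1.29 (1.13 to 1.46) with brequinar and 0.224 (0.173 to 0.286) with withdrawal; as UMIs per cell these were 0.963 and 0.116, so the direction at 48 h of brequinar turned with the scale. Brequinar-treated cells thus held 4.98 times (4.38 to 5.68) the Bcl2 level of withdrawn cells at 24 h and 5.99 times (4.61 to 7.88) at 48 h.

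Bcl2l1, the BCL-XL gene, differed most between the series at 24 h. Its levels were 29.6, 26.3, 32.8, 55.8 and 25.8 CPM over the brequinar hours, and 31.1, 38.6, 29.8, 12.6 and 21.0 CPM over the withdrawal hours. The 24 h culture was the high point of the brequinar series and the low point of the withdrawal series. Ratios to 0 h at 24 h were 1.89 (1.70 to 2.10) with brequinar and 0.406 (0.342 to 0.480) with withdrawal. By 48 h the brequinar ratio was 0.872 (0.718 to 1.05), an interval that includes 1, and the withdrawal ratio was 0.674 (0.558 to 0.810). The brequinar level was 4.42 times (3.77 to 5.21) the withdrawal level at 24 h and 1.23 times (0.964 to 1.56) at 48 h.

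Mcl1 stood apart from Bcl2 because it was highest at 48 h in both series. It measured 154, 119, 133, 153 and 250.2 CPM over the brequinar hours. In withdrawal it measured 152, 119.5, 141, 139 and 337 CPM. The 6 to 24 h cultures of both series lay at or below 0 h. The 48 h ratio was 1.62 (1.52 to 1.73) with brequinar and 2.21 (2.09 to 2.34) with withdrawal. Per cell, the contrast was smaller, since cells at 48 h yielded fewer UMIs: 2.48 Mcl1 UMIs per cell after brequinar and 2.04 at its 0 h, and 2.40 after withdrawal and 2.10 at its 0 h. These are ratios of 1.21 and 1.15.

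Bcl2a1b, a copy of the mouse A1 gene, was barely detected, with 29 UMIs over all cells and at most 1.31 CPM. Of the 31-base words in the last 500 bases of its transcripts, 93.4% also occur in other genes. These are other A1 copies and Gm29094, a gene model overlapping Bcl2a1b on the same strand. The share in A1 copies alone was not computed, and the count of Bcl2a1b is not told apart from theirs here. The copies of A1 summed to 44 UMIs at 48 h of brequinar and 10 at its 0 h, and to 41 UMIs at 48 h of withdrawal and 11 at its 0 h. The CPM ratios were 16.7 (8.30 to 37.3) with brequinar and 10.1 (5.11 to 21.8) with withdrawal. A1 is a gene of maturing myeloid cells, and in each series its copies and the neutrophil markers were both highest at 48 h. No interval was computed for the contrast of A1 between the series. At 48 h its copies summed to 8.40 CPM with brequinar, where neutrophil markers made up 0.197% of UMIs. With withdrawal they summed to 5.97 CPM, where the markers made up 5.90%. At 24 h of withdrawal they already gave 62 UMIs (4.26 CPM), with the markers at 0.131%. The part of cell states in A1 counts was not tested.

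**Figure D1:**
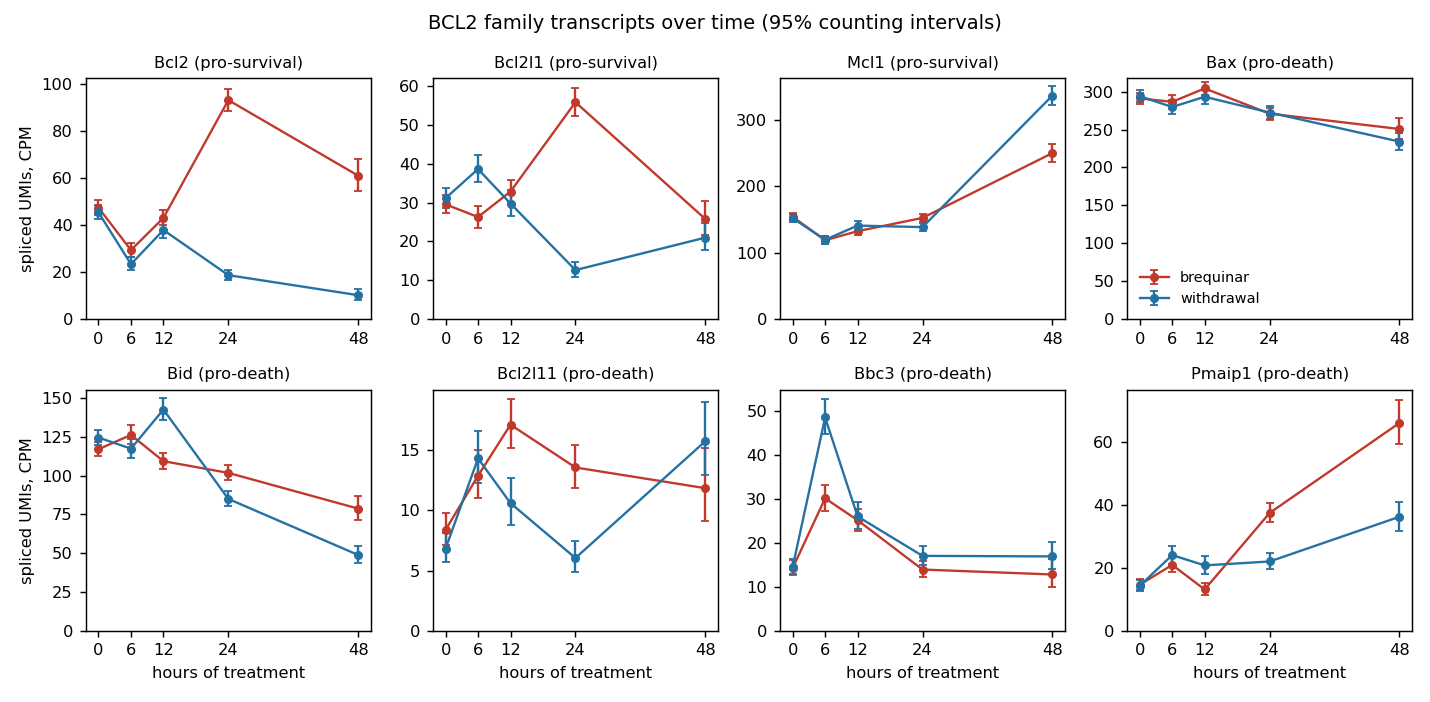
CPM of the 8 measured members (y axis, from 0, with 95% counting intervals) against hours of treatment (x axis), brequinar in red and withdrawal in blue, 1 culture per point. Bcl2 reached 93.3 CPM at 24 h of brequinar and 18.7 CPM at 24 h of withdrawal, whereas Bax stayed between 234 and 304 CPM throughout.

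Among the effectors, Bax was the steadiest member. It measured 291, 287, 304, 271 and 251 CPM over the brequinar hours and 294, 279.8, 293, 272 and 234 CPM over the withdrawal hours. The lowest Bax level of each series was at 48 h, with ratios of 0.861 (0.811 to 0.915) and 0.797 (0.753 to 0.842) for brequinar and withdrawal. Neither reached 1.5-fold. Of the Bax 31-base words, 19.6% also occur in Gm45808, an overlapping gene model on the same strand, which is listed at 0 UMIs in all cultures. Bak1 gave 71 UMIs in all and at most 1.01 CPM. The 48 h withdrawal culture had 0 UMIs of it, which allows up to 0.437 CPM, and the 48 h brequinar culture 3 UMIs, so a difference was not detectable at this depth. Bak1 overlaps Ggnbp1 on the opposite strand.

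Bbc3 was highest early, at 6 h, in both series. It measured 14.2, 30.1, 25.1, 13.9 and 12.8 CPM over the brequinar hours and 14.5, 48.5, 26.0, 17.0 and 16.9 CPM over the withdrawal hours. In both series 6 h was the highest culture, 12 h was intermediate, and the intervals of the 24 and 48 h ratios to 0 h included 1. The 6 h ratio was 2.11 (1.81 to 2.47) with brequinar and 3.34 (2.89 to 3.88) with withdrawal. The brequinar level at 6 h was 0.621 times (0.545 to 0.707) the withdrawal level. As UMIs per cell the 6 h ratios were 1.67 with brequinar and 2.35 with withdrawal.

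Bcl2l11, the BIM gene, was a low transcript that stood above 0 h in 7 of the 8 treated cultures in CPM and in 6 of 8 as UMIs per cell. Its CPM values were 8.38, 12.9, 17.1, 13.6 and 11.8 over the brequinar hours and 6.82, 14.3, 10.6, 6.04 and 15.7 over the withdrawal hours. Withdrawal at 24 h was the exception, with a ratio of 0.886 (0.667 to 1.17). The series differed in shape: brequinar was highest at 12 h, with a ratio of 2.04 (1.68 to 2.49). Withdrawal had 2 high points, 6 h at 2.10 (1.66 to 2.66) and 48 h at 2.31 (1.77 to 3.01). At 24 h the brequinar level was 2.24 times (1.75 to 2.90) the withdrawal level. As UMIs per cell, withdrawal gave 0.997 times its 0 h value at 12 h and 1.19 times at 48 h.

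Pmaip1, the NOXA gene, showed the largest ratio to 0 h of any measured member, at 48 h of brequinar. Its levels were 14.6, 20.9, 13.1, 37.3 and 65.9 CPM over the brequinar hours, against 14.3, 24.0, 20.7, 22.0 and 36.1 CPM over the withdrawal hours. Both 48 h cultures were the highest of their series. The 48 h ratio was 4.51 (3.85 to 5.29) with brequinar and 2.53 (2.12 to 3.02) with withdrawal, and 24 h of brequinar gave 2.56 (2.22 to 2.95). Brequinar exceeded withdrawal 1.70-fold (1.48 to 1.95) at 24 h and 1.82-fold (1.54 to 2.16) at 48 h. As UMIs per cell, the 48 h ratio was 3.37 with brequinar and 1.31 with withdrawal.

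Bid, the link from death receptors to mitochondria, was lower late in both series. Its CPM values were 117, 126, 109, 102 and 78.7 over the brequinar hours and 124, 117, 142, 84.9 and 48.8 over the withdrawal hours. The 48 h ratio was 0.673 (0.604 to 0.747) with brequinar and 0.392 (0.349 to 0.440) with withdrawal. At 12 h the directions differed, with 0.934 (0.877 to 0.994) for brequinar and 1.14 (1.07 to 1.22) for withdrawal. The directions did not differ as UMIs per cell, with 0.732 for brequinar and 0.734 for withdrawal. Bid overlaps Bcl2l13 on the opposite strand. Reads from the overlap of the pair cannot be told apart if strand was not counted, and Bcl2l13 was at 0.508 times its 0 h level at 48 h of withdrawal. On the same strand, 0 of 940 words of 31 bases in the last 500 bases of Bid transcripts occur in another gene.

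The members were also counted together. With at least 1.5-fold as the mark, 6 h of brequinar had 2 of 8 measured members higher (Bcl2l11 and Bbc3) and 1 lower (Bcl2), where 12.8% of 8625 genes were higher and 4.75% lower. At 12 h of brequinar the same pair was higher and 0 were lower, against 19.8% and 4.53% of 8786 genes. At 24 h of brequinar 4 were higher (Bcl2, Bcl2l1, Bcl2l11 and Pmaip1) and 0 lower, against 33.5% and 12.5% of 9012 genes. The 48 h brequinar culture had 2 higher (Mcl1 and Pmaip1) and 0 lower, against 28.2% and 16.5% of 8911 genes.

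In the withdrawal series, 6 h had 3 members higher (Bcl2l11, Bbc3 and Pmaip1) and 1 lower (Bcl2), where 17.8% of 8716 genes were higher and 7.53% lower. The 12 h culture had 2 higher (Bcl2l11 and Bbc3) and 0 lower, against 17.4% and 10.2% of 8665 genes. At 24 h 1 was higher (Pmaip1) and 2 lower (Bcl2 and Bcl2l1), against 10.5% and 13.1% of 8482 genes. At 48 h 3 were higher (Mcl1, Bcl2l11 and Pmaip1) and 2 lower (Bcl2 and Bid), against 22.8% and 38.1% of 8843 genes. With 8 members, 1 gene is a large share, and no count is read as particular to the family.

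**Figure D2:**
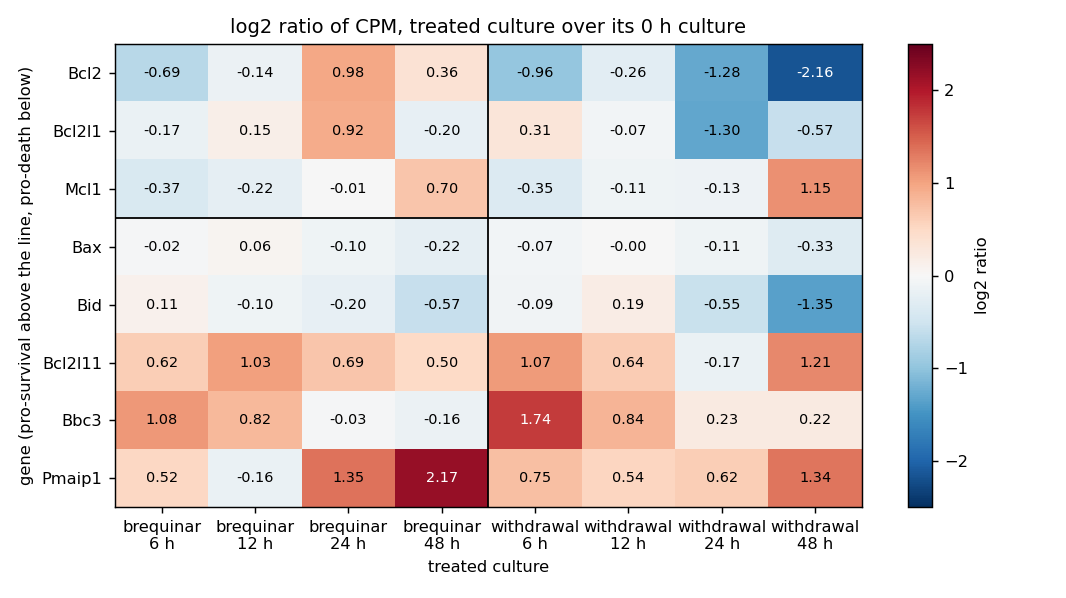
Log2 ratio of CPM (colour and printed value) of the 8 measured members (rows) in each treated culture over the 0 h culture of its series (columns, brequinar left of withdrawal). At 24 h Bcl2 reads 0.98 with brequinar and -1.28 with withdrawal, and Pmaip1 reads 2.17 and 1.34 at 48 h of brequinar and withdrawal.

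Set directly against withdrawal at the same hour, brequinar cultures had 0 members higher and 1 lower (Bbc3) at 6 h, where 2.48% of 8725 genes were higher and 2.98% lower. At 12 h 1 was higher (Bcl2l11) and 1 lower (Pmaip1, ratio 0.632, 0.521 to 0.766), against 16.0% and 8.62% of 8911 genes. At 24 h 4 were higher (Bcl2, Bcl2l1, Bcl2l11 and Pmaip1) and 0 lower, against 33.9% and 7.82% of 8988 genes. At 48 h 3 were higher (Bcl2, Bid and Pmaip1) and 0 lower, against 38.6% and 9.76% of 8932 genes. With median-of-ratios size factors the 48 h count was 1 higher (Bcl2) and 3 lower (Mcl1, Bcl2l11 and Bbc3), and Bid and Pmaip1 were at 1.25 and 1.42 times. The median gene was itself 0.26 higher on the log2 scale in brequinar than in withdrawal cultures at 24 h, and 0.31 higher at 48 h.

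The balance of the family was followed as the summed counts of the pro-survival members over those of the pro-death members. It is read only as a change from 0 h, since its level depends on how well each transcript is captured. Capture also sets the weight of each gene in the sums, so the change is not free of it. The ratio of the sums was 0.519, 0.366, 0.444, 0.689 and 0.802 at 0, 6, 12, 24 and 48 h of brequinar. It was 0.503, 0.376, 0.423, 0.423 and 1.05 at the same hours of withdrawal. Both series were lower than 0 h at 6 and 12 h, and both were higher at 48 h. At 24 h brequinar was above its 0 h level and withdrawal below. On the log2 scale the change from 0 h was -0.50 (-0.59 to -0.42), -0.22 (-0.30 to -0.14), 0.41 (0.34 to 0.48) and 0.63 (0.52 to 0.73) at 6, 12, 24 and 48 h of brequinar. With withdrawal it was -0.42 (-0.51 to -0.33), -0.25 (-0.34 to -0.16), -0.25 (-0.34 to -0.16) and 1.06 (0.96 to 1.16).

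The 48 h value of withdrawal rested on Mcl1. Without Mcl1 it was -0.87, with Bcl2 and Bcl2l1 both below 0 h, and as a difference of mean log2 ratios, with equal weight for each gene, it was -0.11 over all 10 members and -0.67 over the 8 measured ones. The 10-member value includes Bcl2a1b and Bak1, which rest on few UMIs. Brequinar at 24 h stayed on the pro-survival side in both ways, at 0.98 without Mcl1 and, with equal weights, 0.19 over 10 members and 0.29 over 8. Brequinar at 48 h was 0.26 without Mcl1, and with equal weights its sign depended on the members used, at 0.015 over 10 and -0.038 over 8. The balance at 6 h stayed on the pro-death side in each of these computations and in both series.

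**Figure D3:**
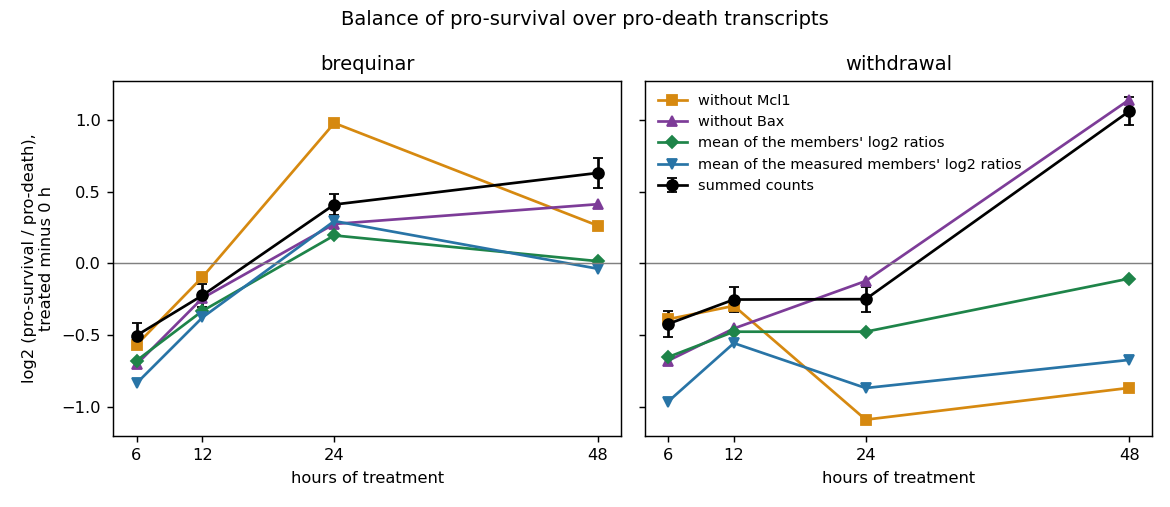
Change from 0 h in the log2 ratio of pro-survival to pro-death counts (y axis) against hours (x axis), brequinar left and withdrawal right, from summed counts (black, with 95% counting intervals), without Mcl1, without Bax, and as the difference of mean log2 ratios over 10 members and over the 8 measured ones. At 48 h of withdrawal the summed counts read 1.06 and the sum without Mcl1 reads -0.87.

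The scale mattered at 48 h, when cells held fewer UMIs. At 48 h of withdrawal the median gene had a log2 ratio to 0 h of -0.24 in CPM, 0.04 with median-of-ratios size factors and -0.97 as UMIs per cell. The CPM median was taken with 5 CPM added to each level. With the same 5 CPM added, Bcl2 stood at -1.73, Mcl1 at 1.12 and Pmaip1 at 1.09. As UMIs per cell, with nothing added, the log2 ratio was -3.11 for Bcl2 and 0.20 for Mcl1. In brequinar at 48 h the median moved less (0.09 in CPM and -0.25 as UMIs per cell). There Pmaip1 stood at 1.85 in CPM with 5 CPM added. Bax at 48 h of withdrawal turned with the scale, from a log2 ratio of -0.33 in CPM to 0.02 with median-of-ratios factors and -1.28 as UMIs per cell.

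**Figure D4:**
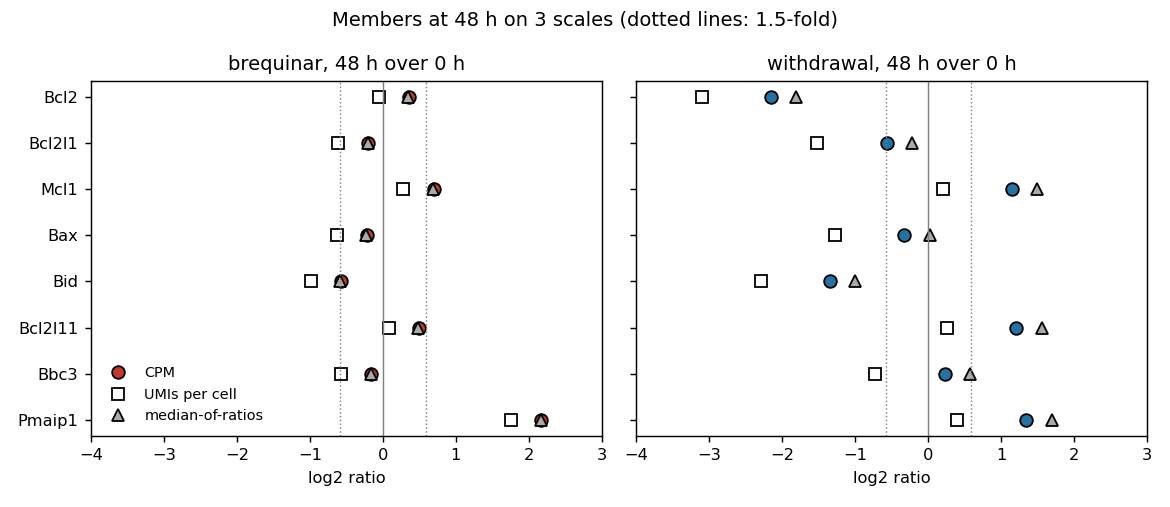
Log2 ratio to 0 h (x axis) of each measured member (y axis) at 48 h of brequinar (left) and withdrawal (right), as CPM (filled circles), UMIs per cell (open squares) and with median-of-ratios factors (triangles). Mcl1 at 48 h of withdrawal reads 1.15 in CPM and 0.20 as UMIs per cell, and Bcl2 at 48 h of withdrawal lies left of the lower 1.5-fold line on each of the 3 scales.

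Within cell cycle classes, assigned from S and G2/M gene scores in cells thinned to 2500 UMIs, the differences of Bcl2 and Mcl1 named here had the same direction as over all cells. Bcl2 at 24 h of brequinar was at 1.91 (1.58 to 2.30) times 0 h in S cells and 1.92 (1.74 to 2.12) times in G2/M cells. At 48 h of withdrawal it was at 0.203 (0.0808 to 0.423) times in S cells and 0.192 (0.125 to 0.282) times in G2/M cells. Mcl1 at 48 h of withdrawal was at 1.41 times in S cells and 1.40 times in G2/M cells, both below its ratio over all cells. The G1-like class, where Mcl1 was at 3.01 times (1.96 to 4.88), made up 55.1% of 888 cells at 48 h of withdrawal. At 0 h it held only 12 of 1173 cells, with 21 Mcl1 UMIs. The G2/M class held 85.3% of 1433 cells at 24 h of brequinar and 57.1% of 1309 cells at its 0 h. The classes are relative scores and were not checked against another measure of phase. Weighting cells to the class shares of 0 h gave a balance at 48 h of withdrawal of 0.50 in place of 1.06.

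The 48 h withdrawal culture was also read by its neutrophil markers. The 25% of cells richest in them (241 cells, 18.8% of their UMIs) was set beside the other 722 cells (1.67%). This comparison was chosen after the data were seen, and its intervals cover counting only. The markers are part of the total, so the split itself lowers the CPM of other genes in the marker-rich cells. Ratios with the markers left out of the total were not computed, so a ratio a little below 1 is not read as a difference. Pmaip1 was lower in the marker-rich cells, at 15.9 against 42.8 CPM, a ratio of 0.373 (0.240 to 0.558), and Bcl2l11 at 6.50 against 18.8 CPM, a ratio of 0.346 (0.167 to 0.647). Bax was at 159 against 259 CPM, a ratio of 0.614 (0.536 to 0.700). Mcl1 was at 306 against 347 CPM, a ratio of 0.882 (0.798 to 0.973), so its level was above the 0 h level of 152 CPM in both sets of cells. In brequinar at 48 h the same split gave 132 and 396 cells with 0.745% and 0.0356% marker UMIs, and Pmaip1 at 68.2 against 65.2 CPM, a ratio of 1.05 (0.805 to 1.35).

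Shares of cells were compared after thinning to 2500 UMIs. Pmaip1 was seen in 15.9% (12.9 to 19.4) of 515 cells at 48 h of brequinar and 3.82% (2.85 to 5.01) of 1309 cells at its 0 h, where all UMIs gave 43.2% and 16.2%. Mcl1 was seen in 55.6% (52.3 to 58.9) of 888 cells at 48 h of withdrawal and 30.4% (27.8 to 33.2) of 1173 cells at its 0 h, where all UMIs gave 79.4% and 77.5%. Bcl2 was seen in 2.82% (1.83 to 4.13) of cells at 48 h of withdrawal and 8.78% (7.22 to 10.5) at its 0 h. Thinning left out 1591 cells below 2500 UMIs, 13 and 194 of them at 48 and 0 h of brequinar and 75 and 180 at 48 and 0 h of withdrawal. Cells were not assigned to types here, so no set of cells known to lack these genes was at hand. Free RNA, taken from barcodes of 2 to 100 UMIs, held Pmaip1 at 30.2 CPM, Mcl1 at 184 CPM and Bcl2 at 32.4 CPM.

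Among 6632 genes at 20 CPM or more in at least 1 condition, those most like a member over the 10 conditions were listed by Pearson correlation of log2 levels, as a description. Among the closest to Bcl2 were Lancl1 (0.97) and Epha7 (0.96). Closest to Mcl1 were Pirb and Pilrb1 (0.97 each) and Hcar2 (0.96), all receptors of myeloid cells. None of them exceeded 6.12 CPM outside the 48 h cultures, so their likeness to Mcl1 rests on those cultures. Closest to Bbc3 were Sqstm1 (0.96), which encodes the autophagy receptor p62, Agap1 (0.94) and Fam172a (0.93). Closest to Pmaip1 were Tctex1d2, Cybc1 and Ggnbp2 (0.96 each). The points share depth and composition of the same 10 cultures.

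Other genes of the pathway were followed as lists. Death receptors and ligands had 5 of 6 measured members at least 1.5-fold higher and 0 lower at 48 h in each series, with a median log2 ratio of 1.08 for brequinar and 1.29 for withdrawal, beside 0.09 and -0.24 for all genes, of which 28.2% and 22.8% were higher. Fas, whose protein starts caspase-8 cleavage of BID, was at 43.3 CPM at 48 h of brequinar and 2.51 CPM at its 0 h, a ratio of 17.3 (12.7 to 24.0). After 48 h of withdrawal it was at 51.1 CPM, against 3.33 CPM at 0 h, a ratio of 15.4 (11.7 to 20.5). Tnfrsf1a, a receptor of TNF, was at 2.42 times (2.14 to 2.73) its 0 h level at 48 h of brequinar and 3.92 times (3.55 to 4.32) at 48 h of withdrawal. Tnfrsf1b, the other TNF receptor, was at 2.63 and 3.15 times for brequinar and withdrawal.

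Inhibitors of apoptosis, only some of which restrain caspases, had 5 of 8 members higher at 48 h of brequinar, 4 of 8 higher at 48 h of withdrawal, and 0 lower in each. Of all genes, 28.2% were higher and 16.5% lower at 48 h of brequinar, and 22.8% higher and 38.1% lower at 48 h of withdrawal, and the counts of every list at 48 h are read beside these shares. Naip2, an inflammasome receptor of this family, was at 3.34 times (2.77 to 4.01) its 0 h level at 48 h of brequinar and 5.05 times (4.30 to 5.95) at 48 h of withdrawal. Birc3, which encodes cIAP2, was at 2.18 times with brequinar and 3.80 times with withdrawal. Of the apoptosome and caspase genes, 2 of 11 were higher and 1 lower at 48 h of brequinar, and 2 were higher and 5 lower at 48 h of withdrawal, where 38.1% of all genes were lower. Apaf1, the scaffold of the apoptosome, was at 1.95 times (1.55 to 2.45) its 0 h level at 48 h of brequinar and 2.71 times (2.25 to 3.27) at 48 h of withdrawal. Cycs, the cytochrome c gene, was at 245 CPM at 48 h of brequinar and 317 CPM at its 0 h, and at 101 CPM at 48 h of withdrawal and 315 CPM at its 0 h.

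Outer membrane partners had 1 of 8 higher and 0 lower at 48 h of brequinar, and 1 higher and 4 lower at 48 h of withdrawal, beside 22.8% of all genes higher and 38.1% lower there. In a list written for MCL1 turnover, 2 of 5 measured genes were higher at 48 h in each series, with 0 lower for brequinar and 2 lower for withdrawal. Whether each listed gene, Trib1 among them, acts on MCL1 in these cells was not tested. Trib1, an adaptor of the COP1 ubiquitin ligase, was at 9.54 times (7.41 to 12.4) its 0 h level at 48 h of brequinar and 7.37 times (5.77 to 9.48) at 48 h of withdrawal. Huwe1, a ubiquitin ligase for MCL1, was at 0.755 times with brequinar and 0.486 times with withdrawal. Other BCL2 family genes had 4 of 7 measured members higher at 48 h of brequinar and 0 lower, and 2 of 5 higher and 1 lower at 48 h of withdrawal. Bnip3l, a mitophagy receptor, was at 2.00 (1.81 to 2.20) times its 0 h level with brequinar and 3.05 (2.80 to 3.32) times with withdrawal.

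**Figure D5:**
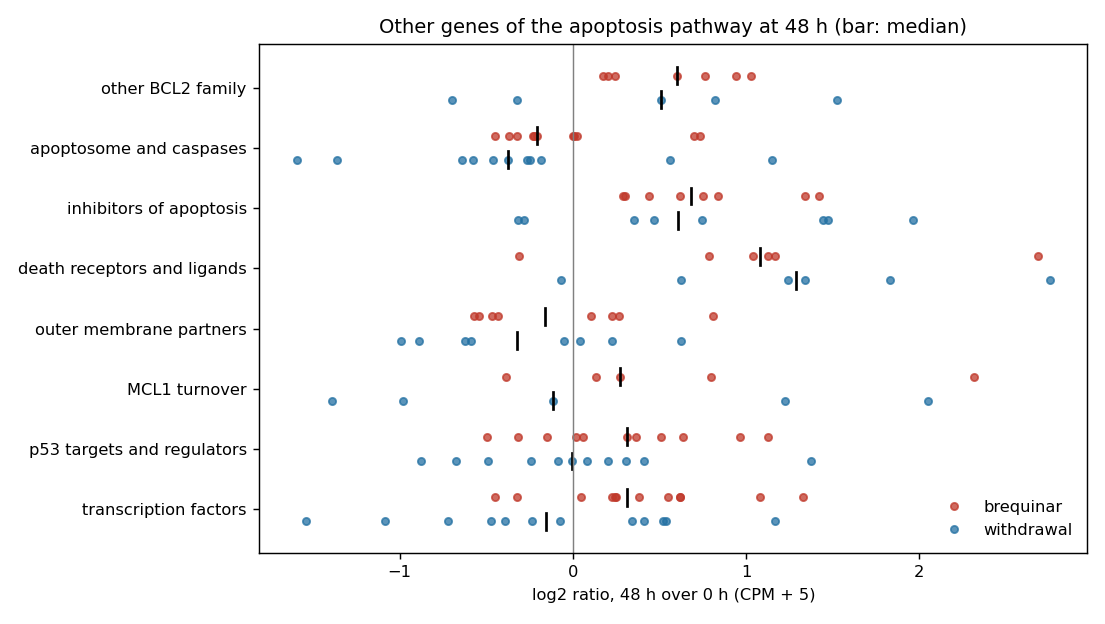
Log2 ratio of 48 h over 0 h (x axis, with 5 CPM added to each level) of measured genes in 8 lists (y axis), each point a gene, brequinar in red above withdrawal in blue, with bars at the median of each list. Death receptors and ligands have medians of 1.08 and 1.29 for brequinar and withdrawal.

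Regulators of the BH3-only genes are given at 6 h, when Bbc3 was highest in both series, and 2 of them also at 24 h of brequinar. Ddit3 encodes CHOP, a stress factor known to lower Bcl2 and raise Bbc3 and Bcl2l11. It was at 661 CPM at 6 h of brequinar and 277 CPM at its 0 h, a ratio of 2.39 (2.31 to 2.47). At 6 h of withdrawal it was at 714 CPM, against 274 CPM at its 0 h, a ratio of 2.61 (2.52 to 2.70). Atf4, the factor upstream of CHOP, was at 1.67 and 1.66 times at 6 h for brequinar and withdrawal. At 24 h of brequinar, when Bcl2 was highest, Atf4 was at 0.355 times (0.334 to 0.377) and Ddit3 at 0.817 times. Neither is given here for 24 and 48 h of withdrawal, when Bcl2 was lowest, for 12 h of either series or for 48 h of brequinar. Those hours include the highest levels of Bcl2l11 (12 h of brequinar and 48 h of withdrawal) and of Pmaip1 (48 h of each). The hours shown therefore do not tell whether the factors followed the members over time. The part of these factors in the members' levels was not tested. Foxo3 was at 1.13 times (1.02 to 1.26) its 0 h level at 6 h of brequinar and 1.64 times (1.48 to 1.82) at 6 h of withdrawal.

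The p53 pathway, which can drive Bbc3, Pmaip1 and Bax, had 4 of 11 measured genes higher and 0 lower at 6 h of brequinar, and 4 higher and 1 lower at 6 h of withdrawal, beside 12.8% and 17.8% of all genes higher. Trp53 itself was at 0.698 times (0.578 to 0.839) its 0 h level at 6 h of brequinar and 0.858 times (0.706 to 1.04) at 6 h of withdrawal. Cdkn1a, the p21 gene, was at 0.819 times at 6 h of brequinar and 1.27 times at 6 h of withdrawal. By 48 h it was at 2.46 times (2.11 to 2.86) with brequinar and 1.08 times (0.879 to 1.31) with withdrawal. Mdm2, the ubiquitin ligase of p53, was between 1.13 and 1.33 times 0 h in all 8 treated cultures. Myc was lowest at 6 h of withdrawal, at 0.229 times (0.209 to 0.249), the culture in which Bbc3 was highest. Any link between the genes of this paragraph and the members was not tested.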

How the data were processed

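The authors deposited UMI counts as spliced and unspliced matrices, of which the spliced one was used. Per the submitters' processing notes, kallisto 0.46, bustools 0.39.4 and Cell Ranger were among the tools. The labels name no genome build or strand setting; 53861 of 54838 gene IDs match GENCODE vM21 (GRCm38) with the version included. Condition and doublet calls come from the authors' deposited annotation of 15582 barcodes, and 2777 doublets and 265 negative barcodes were left out with no other filter. Both runs of the pool share 1 matrix without a mark of the run, so barcodes found in both could not be counted.

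Each culture's cells were summed and divided by their total count (CPM). Ratios carry exact conditional binomial (Clopper-Pearson) intervals at 95%, and levels exact Poisson limits. A gene counts as measured when either culture reaches 5 CPM, and as higher or lower at 1.5-fold or more. Log2 ratios of lists and of the median gene in CPM use a pseudocount of 5 CPM, and the equal-weight balance 1 CPM. A count of 0 allows up to 3 counts. PCR duplicates are removed by UMI, and intervals cover counting error only. The members and lists were chosen with earlier results of these data known. In lists, the 4 genes with the largest 48 h ratio could be named, with Trp53, Cdkn1a, Mdm2, Foxo3, Ddit3, Atf4, Myc and Bcl2a1a always allowed; Bcl2l13 is also among the 4. Cell cycle classes came from scanpy 1.11.5 on 42 S and 52 G2/M genes. Ratio and balance steps were tested on simulated data. Values of some single genes are not reported here. Python 3.11.15, numpy 2.4.6, scipy 1.17.1 and pandas 2.3.3 were used.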

Additional observations from a re-analysis of the deposited data

Results flagged for a closer look

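Bcl2 differed in direction between the series at 24 h, with both counting intervals on opposite sides of 1. The brequinar ratio to 0 h was 1.97 (1.81 to 2.13) and the withdrawal ratio 0.412 (0.358 to 0.473), a ratio of ratios of 4.77. At 48 h the ratios were 1.29 (1.13 to 1.46) for brequinar and 0.224 (0.173 to 0.286) for withdrawal, a ratio of ratios of 5.74. As UMIs per cell the 48 h brequinar ratio was 0.963, on the other side of 1. Bcl2l1 did so at 24 h, with 1.89 (1.70 to 2.10) for brequinar and 0.406 (0.342 to 0.480) for withdrawal, a ratio of ratios of 4.66. Bid did so at 12 h by a small margin, with 0.934 (0.877 to 0.994) for brequinar and 1.14 (1.07 to 1.22) for withdrawal, a ratio of ratios of 0.816. As UMIs per cell Bid was lower in both at 12 h, at 0.732 for brequinar and 0.734 for withdrawal. With 1 culture per condition none of these differences was tested.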

How the results depend on the processing

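No paired analysis was possible because each condition was 1 culture and no result comes from a test. Of 96 ratios of single members, all kept their value within counting error when mitochondrial genes left the total, 5% of free RNA was removed, cells with 10% or more mitochondrial UMIs were left out, or the 2% of cells richest in granule genes were left out. Weighting cells to the 0 h phase shares moved 9, the mean of per-cell CPM 13, median-of-ratios factors 19 and thinning 43. UMIs per cell, added after seeing the data, moved 78 and, of ratios past 1.5-fold, reversed 1, Bcl2l11 at 12 h of withdrawal, to a log2 ratio of -0.0045. The ratios of Bcl2, Bcl2l1 and Pmaip1 at 24 h of brequinar and of Bcl2 at 24 and 48 h of withdrawal passed 1.5-fold in all 9 settings. The cause of each move was not tested.

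The balance changes (log2) moved as follows. Equal weights over all 10 members gave -0.68, -0.33, 0.19 and 0.015 at 6, 12, 24 and 48 h of brequinar and -0.65, -0.48, -0.48 and -0.11 with withdrawal, the last reversed. Over the 8 measured members, a choice made after seeing the data, they gave -0.84, -0.38, 0.29 and a reversed -0.038 with brequinar and -0.96, -0.56, -0.87 and a reversed -0.67 with withdrawal. Without Mcl1 it was -0.10, 0.98 and 0.26 at 12, 24 and 48 h of brequinar, and -1.09 and a reversed -0.87 at 24 and 48 h of withdrawal. Without Bax it was -0.70, 0.27 and 0.41 at 6, 24 and 48 h of brequinar and -0.68, -0.45 and -0.12 at 6, 12 and 24 h of withdrawal. Mean per-cell CPM gave 0.33 and 0.52 for brequinar at 24 and 48 h and -0.13 for withdrawal at 24 h. Thinned cells gave -0.11 and 1.44 at 12 and 48 h of withdrawal, and phase weights 0.50 at 48 h of withdrawal.

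Counts of members past the mark also moved. At 20 CPM or more, 1 was higher for brequinar at 6 and 12 h and for withdrawal at 12 h, and 0 higher for brequinar against withdrawal at 12 h. At 48 h of brequinar 1 was lower after removing free RNA, under phase weights, without cells high in mitochondrial UMIs and without mitochondrial genes. As UMIs per cell, 1 was higher for brequinar at 6, 12 and 48 h and for withdrawal at 6 h, and 0 for withdrawal at 12, 24 and 48 h; 2 and 3 were lower at 6 and 48 h of brequinar, and 3, 4 and 5 at 6, 12 and 48 h of withdrawal; against withdrawal, 0 were lower at 6 and 12 h. At 2-fold, 1 was higher at each hour of brequinar, 0 at 12 and 24 h of withdrawal, and 0 lower at 6 h of either; against withdrawal 0 were higher at 12 h, 1 at 48 h, and 0 lower at 6 and 12 h. Thinned cells gave 1 higher at 6 h of brequinar and 12 h of withdrawal, 0 lower at 6 h of withdrawal, and against withdrawal 0 higher at 12 h and 2 lower at 48 h. Phase weights gave 0 higher at 24 h of withdrawal. Mean per-cell CPM gave 1 higher at 6 h of brequinar, and against withdrawal 2 lower at 6 h and 1 at 48 h. Median-of-ratios factors gave 1 higher at 6 h of brequinar, and against withdrawal 1 higher and 3 lower at 48 h. With no filter on low values, 2 were lower at 6 h of brequinar and of withdrawal, 2 higher at 24 h of withdrawal, and against withdrawal 2, 1 and 1 lower at 12, 24 and 48 h.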
